A study of Mus musculus with 3 samples.

Results

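ESRRA peaks were examined at 7 nuclear genes that encode the stalk and membrane subunits of mitochondrial ATP synthase: Atp5f1, Atp5h, Atp5j, Atp5o, Atp5k, Atp5j2 and Atp5l. The genes were chosen by name, whether or not a peak lay near them, and a peak was linked to a gene when its midpoint lay within 30 kb of any annotated transcript start of that gene. By this rule 4 of the 7 genes had a peak, and they held 5 of the 1639 peaks in the list. The background was the 22367 protein-coding genes of the annotation. All positions are in the mouse genome mm9, counted from 1, with transcripts from GENCODE M1.

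The chromatin came from adult villus cells taken from wild-type (WT) C57BL/6 mice on regular chow, and the tissue was the epithelium of the duodenum, the first stretch of the small intestine. In chromatin immunoprecipitation sequencing (ChIP-seq), DNA cross-linked to a protein is recovered with an antibody and sequenced, and there were 2 libraries made with an antibody to ESRRA and 1 of input chromatin. The authors merged both ChIP libraries and called a single list of peaks, each reaching 300 bp to either side of its midpoint, so no value below has a replicate error. The list gave no height, p-value or read depth, a peak just past the threshold counted the same as a strong one, and the labelled cell type could not be checked against marker genes.

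ATP synthase couples the flow of protons across the inner mitochondrial membrane to the making of ATP. The c-ring in the membrane turns a central shaft within the catalytic head, F1, while the peripheral stalk holds the head still against that rotation. The subunits e, f and g lie in the membrane beside the ring, and are known for joining ATP synthase into dimers at the edges of the cristae. ESRRA is an orphan nuclear receptor known to act on genes of mitochondrial energy metabolism, and it binds a single extended half-site, most often written TCAAGGTCA.

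The sequences around the best-matching ESRR letters in each of the 5 peaks are shown because they carry what the promoter peaks and the distal peaks had in common. Each is a stretch of the mm9 genome, 5′ to 3′, with the matching letters in capitals. All 7 genes lie on the minus strand, and the strand printed is the one on which the letters read forward. The windows are chr16:91931475-91931683 (plus strand) at Atp5o, chr16:84834654-84834860 (minus strand) at Atp5j, chr9:44728826-44728938 (plus strand) at Atp5l, and chr11:115308666-115308874 (plus strand) and chr11:115309696-115309902 (minus strand) for the nearer and the farther peak upstream of Atp5h.
Atp5o peak: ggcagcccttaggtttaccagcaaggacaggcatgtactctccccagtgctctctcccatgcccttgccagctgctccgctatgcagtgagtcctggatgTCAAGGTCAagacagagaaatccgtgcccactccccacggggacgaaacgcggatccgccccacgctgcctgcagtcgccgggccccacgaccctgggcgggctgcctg
Atp5j peak: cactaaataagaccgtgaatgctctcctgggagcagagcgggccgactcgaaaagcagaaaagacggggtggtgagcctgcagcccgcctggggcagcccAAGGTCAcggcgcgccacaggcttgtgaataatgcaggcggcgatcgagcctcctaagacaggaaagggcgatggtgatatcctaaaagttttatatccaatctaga
Atp5l peak: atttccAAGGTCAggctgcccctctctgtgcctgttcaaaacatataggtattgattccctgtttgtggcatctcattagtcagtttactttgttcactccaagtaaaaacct
Atp5h nearer peak: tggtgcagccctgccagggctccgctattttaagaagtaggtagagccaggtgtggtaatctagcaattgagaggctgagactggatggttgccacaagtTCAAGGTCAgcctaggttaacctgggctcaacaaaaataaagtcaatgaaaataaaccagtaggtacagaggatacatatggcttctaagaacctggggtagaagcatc
Atp5h farther peak: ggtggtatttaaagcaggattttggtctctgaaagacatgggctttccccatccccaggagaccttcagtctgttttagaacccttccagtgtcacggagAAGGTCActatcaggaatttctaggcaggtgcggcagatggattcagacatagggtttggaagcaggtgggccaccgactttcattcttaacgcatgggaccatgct
The Atp5o peak and the nearer Atp5h peak held the full 9 letters. The other 3 peaks held the 7-letter half-site AAGGTCA, preceded by CC at Atp5j and Atp5l and by AG in the farther Atp5h peak.

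Peaks lay at the promoters of Atp5l, Atp5o and Atp5j, a distal pair of peaks was linked to Atp5h, and Atp5k, Atp5j2 and Atp5f1 had none. Within 30 kb, 4 of 7 genes (57.1%) had a peak, against 8.75% (1956 of 22367) of all protein-coding genes. Within 1 kb, taken here as the promoter, 3 of 7 (42.9%) had a peak, against 2.08% (465) of all protein-coding genes. The distance from the nearest start to the nearest peak midpoint was 27 bp for Atp5l, 61 bp for Atp5o, 251 bp for Atp5j, 27.5 kb for Atp5h, 85.4 kb for Atp5k, 834 kb for Atp5j2 and 1193509 bp for Atp5f1. The median of the 7 genes was 27.5 kb, and that of all protein-coding genes was 448 kb. Atp5l, Atp5o and Atp5j lay at the near end of the distribution, and Atp5j2 and Atp5f1 lay farther from a peak than the median gene. Only 0.143% of protein-coding genes had a nearer peak than Atp5l, 0.224% than Atp5o and 0.867% than Atp5j, whereas the shares were 66.5% for Atp5j2 and 74.9% for Atp5f1. Atp5h at 8.27% lay just inside the 30-kb limit, and Atp5k at 17.7% was the first gene beyond it. No test was made of these counts, since the genes were chosen with earlier results of the same data known.

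**Figure D1:**
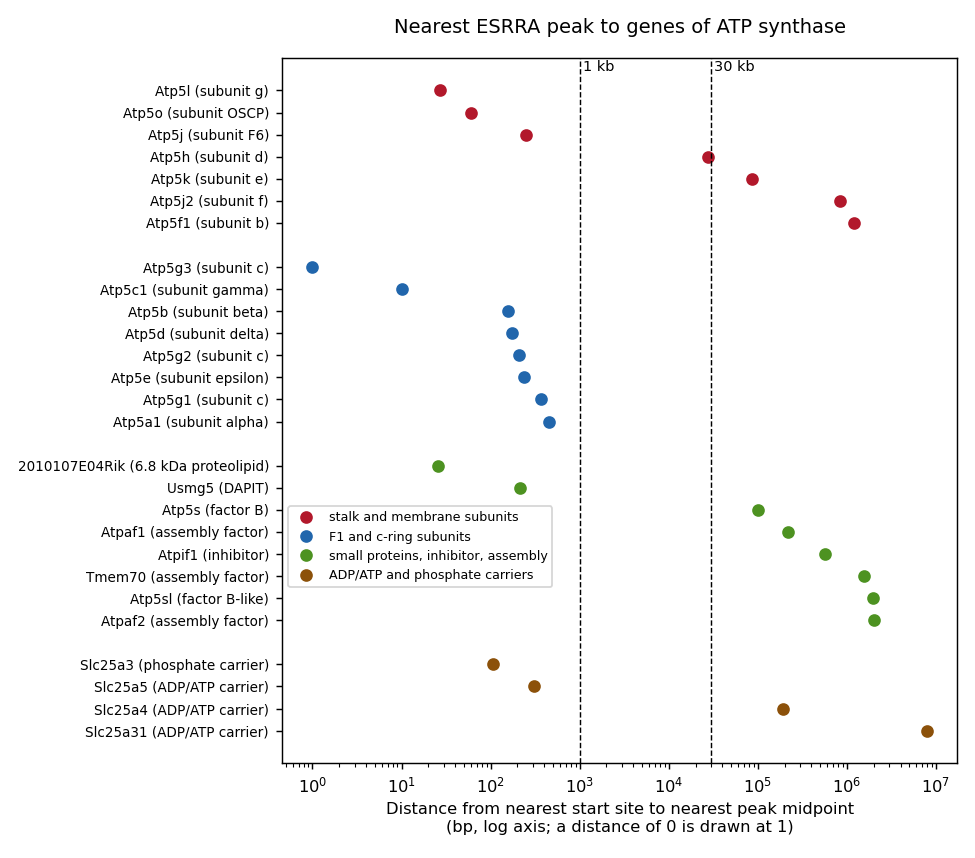
Each point is 1 gene of ATP synthase or its partners, placed by the distance in bp (log axis) from its nearest annotated start to the nearest ESRRA peak midpoint, with dashed lines at 1 kb and 30 kb. Atp5l, Atp5o and Atp5j lay left of the 1-kb line with all 8 F1 and c-ring genes, Atp5h lay at the 30-kb line, and Atp5k, Atp5j2 and Atp5f1 lay right of it.

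In the peripheral stalk, 2 of 4 genes had a promoter peak and 3 of 4 had a peak within 30 kb. Atp5o (ENSMUSG00000022956.4) encodes OSCP, the subunit that fastens the stalk to the top of the F1 head. Its peak, chr16:91931302-91931902, covered a cluster of starts: 5 of the 7 annotated starts of the gene lay within 1 kb of the midpoint. The midpoint was 61 bp downstream of the nearest of them, the start of a processed transcript, and 330 bp downstream of the outermost start at position 91931932, which begins a protein-coding transcript. Exons of Atp5o covered 421 bases of the peak, 138 of its bases being exon in protein-coding transcripts of any gene. The start of a long non-coding RNA on the opposite strand, D430001F17Rik, lay 120 bp from the midpoint, so the peak covered starts on both strands. The midpoint lay downstream of that start as well as of the nearest Atp5o start. The TCAAGGTCA in this peak was 23 bp from the midpoint and 60 bp upstream of the Atp5o start at position 91931519, and GGGCGG, the core letters bound by SP1, occurred 3 times. The G and C content was 61.6%, and the next peak on the chromosome was 1676850 bp away.

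Atp5j (ENSMUSG00000022890.7) encodes F6, a small coupling subunit of the stalk. The peak, chr16:84834526-84835126, had 8 of the 12 annotated Atp5j starts within 1 kb of its midpoint. The nearest of these, 251 bp away, begins a retained-intron transcript. The outermost start, at position 84835870, was 1044 bp from the midpoint, so that Atp5j had a promoter peak through its internal starts but not by its outermost start alone. The nearest start of a protein-coding transcript was 342 bp away, and the midpoint lay upstream of that start. Exons of protein-coding transcripts covered 73 bases of the peak, and the midpoint was in none of them. Gabpa, which encodes the DNA-binding subunit of the ETS factor GABP, another regulator of genes for mitochondrial proteins, starts on the opposite strand 344 bp from the midpoint, and the peak could not be assigned to one of these genes over the other from position alone. The AAGGTCA in the peak lay 69 bp from the midpoint, 273 bp upstream of the Atp5j start at position 84834484. A CCGGAAG, the core letters of GABP sites, lay 281 bp from the midpoint. No other peak lay within 1571247 bp.

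Atp5l (ENSMUSG00000038717.7) encodes subunit g, which contacts subunit e in the membrane, and it was the only 1 of the 3 membrane subunit genes with a peak within 30 kb. Its annotation was the simplest of the group, with 1 transcript and 1 start, at position 44728825 of chromosome 9. The midpoint of the peak, chr9:44728498-44729098, lay 27 bp downstream of that start, in an exon and outside the coding sequence. The exon took up 133 bases of the peak, 52 of them coding. AAGGTCA lay 10 bp upstream of the start and 37 bp from the midpoint. CCGGAAG occurred in 2 places, at the midpoint and 236 bp from it, and GCGCATGC, the core letters of the factor NRF1, lay 264 bp from the midpoint. Atp5l was the only protein-coding gene with a start within 30 kb of this peak. Of the 24-base words in the peak 89.4% occurred once in the genome, which was the lowest share of the 5 peaks, where the lowest of the others was 97.8% at Atp5o.

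**Figure D2:**
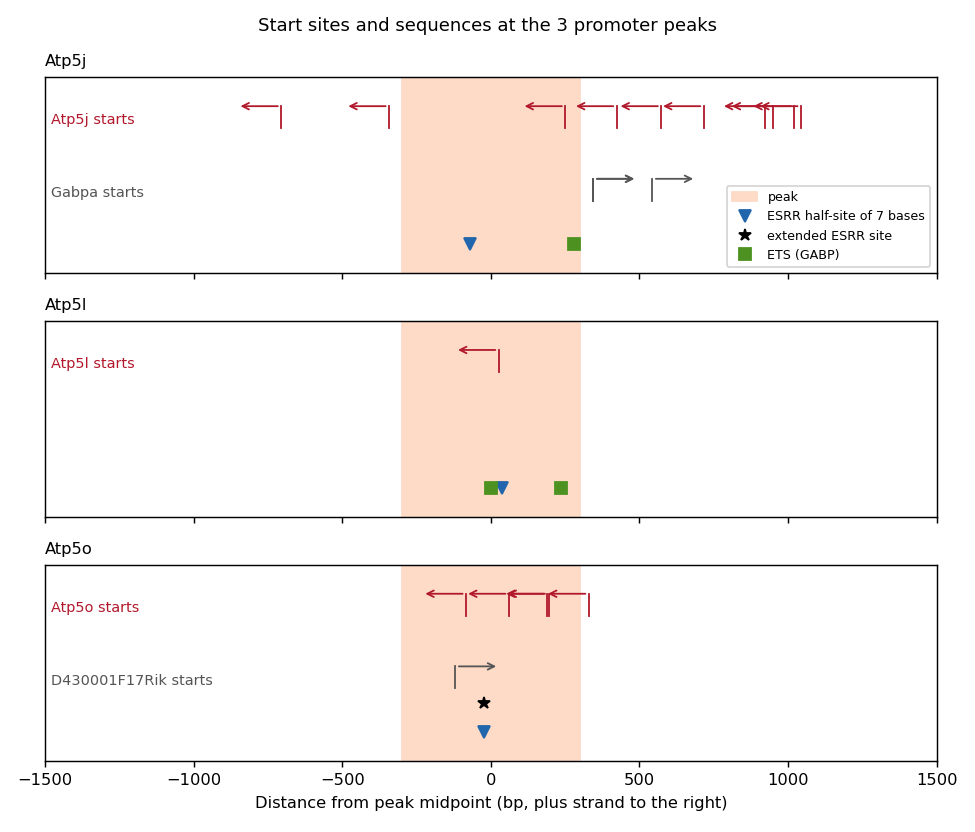
For Atp5j, Atp5l and Atp5o, bent arrows mark annotated starts and their direction, shading marks the peak, 300 bp to either side, and symbols mark matches to named sequences, all by distance in bp from the peak midpoint with the plus strand to the right. Starts on the opposite strand, of Gabpa and D430001F17Rik, lay 344 bp and 120 bp from the midpoint at Atp5j and Atp5o, and the Atp5l peak had a single start at 27 bp.

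In all 3 promoter peaks the midpoint lay downstream of the nearest start of any transcript type. The same held for 276 of the 465 protein-coding genes with a promoter peak (59.4%). At Atp5j the midpoint lay upstream of the nearest protein-coding start. The G and C content of the 3 peaks was 57.1% to 61.6%, and the median of all 424 promoter peaks was 57.0%. Each of the 3 genes was the nearest protein-coding gene to its peak.

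Atp5h (ENSMUSG00000034566.3), which encodes subunit d of the stalk, had no promoter peak. Its outermost start, at position 115281276 of chromosome 11, was 27495 bp from the midpoint of chr11:115308471-115309071 and 28356 bp from that of chr11:115309332-115309932, both upstream. The 2 peaks were 861 bp apart. The midpoint of the nearer one lay in an intron of 4933422H20Rik and that of the farther one between genes. Both peaks still overlapped exons. Exons of 4933422H20Rik covered 94 bases of the nearer peak, all coding. Exons of 4933422H20Rik and AL645470.1 covered 253 bases of the farther peak, 200 of them coding. Neither peak had Atp5h as its nearest gene: among protein-coding genes Atp5h ranked 4 for the nearer peak and 5 for the farther. For the nearer peak the closer protein-coding starts were those of 4933422H20Rik at 6912 bp and Slc16a5, a monocarboxylate transporter family gene, at 15017 bp. An internal start of Kctd2 at 18104 bp was also closer, and for the farther peak Armc7 at 27349 bp was closer too. Of non-coding genes, the microRNA gene AL645470.1 started 603 bp from the nearer midpoint and 258 bp from the farther. The processed transcript Gm11695 started 15997 bp and 15136 bp from them. Over all linked genes, 977 of 1956 (49.9%) were likewise the nearest protein-coding gene to no peak. Further peaks followed on the same side, at 38421 bp, 43467 bp and 54984 bp from the Atp5h start, and their nearest protein-coding genes were Slc16a5 (4091 bp and 371 bp) and Armc7 (721 bp). The peak at 38421 bp is the first outside the 30-kb rule.

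**Figure D3:**
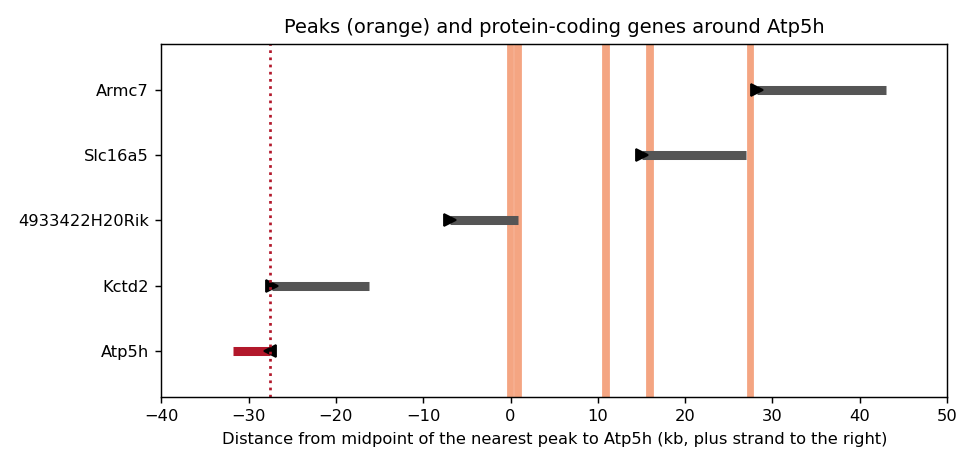
Bars are the protein-coding genes around Atp5h, black triangles mark each gene's outermost start and direction, orange bands are ESRRA peaks, the dotted line is the Atp5h start, and the axis is the distance in kb from the midpoint of the peak nearest to Atp5h. The 2 linked peaks lay 27495 bp and 28356 bp from the Atp5h start, beyond the start of 4933422H20Rik, and 3 further peaks lay beside Slc16a5 and Armc7.

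The nearer Atp5h peak held TCAAGGTCA 1 bp from its midpoint, the most central match of the 5 peaks. These 9 letters with 3 bases on each side, 15 bases in all, occurred 3944 times in the genome, while the 15 bases around the Atp5o match occurred 30 times. Of the 24-base words in this Atp5h peak, 98.8% occurred once in the genome. That count finds exact copies only, so it cannot tell whether the peak holds a diverged repeat. The farther peak held AAGGTCA 167 bp from its midpoint, and it was the only one of the 5 to hold ACTGGAA, the half-site with its letters in reverse order, searched as a negative control. Whether the number of copies bears on the nearer peak was not tested.

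The remaining stalk gene, Atp5f1 (ENSMUSG00000000563.11), encodes subunit b, the long helix that spans from the membrane to OSCP. None of its 5 starts on chromosome 3 had a peak within 30 kb, and the nearest midpoint was 1193509 bp away. Among the membrane subunit genes, the nearest peak to Atp5k (ENSMUSG00000050856.10; subunit e, which pairs with subunit g) was 85396 bp upstream, and the nearest to Atp5j2 (ENSMUSG00000038690.9; subunit f) was 834163 bp away. In the window of 300 bp to either side of each start of the 3 genes, 83.9% to 99.1% of the 24-base words occurred once in the genome. Without reads per position, the list cannot tell a promoter that ESRRA did not occupy from one whose signal stayed under the threshold. On the opposite strand, Wdr77 starts 93 bp from an internal start of Atp5f1 and 730 bp from its outermost, protein-coding start. Kctd2 starts 164 bp from the outermost start of Atp5h. Closely paired opposite starts thus also occurred at members without a promoter peak. At Atp5f1, as at Atp5j and Atp5o, the closest pair was with an internal start. Between outermost starts the distance was 700 bp for Atp5j and Gabpa, and 450 bp for Atp5o and D430001F17Rik.

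The F1 and c-ring genes, the catalytic and rotating parts of the same enzyme, gave the closest comparison. All 8 of them (Atp5a1, Atp5b, Atp5c1, Atp5d, Atp5e, Atp5g1, Atp5g2 and Atp5g3) had a promoter peak, at 0 to 451 bp and a median of 192 bp, against 3 of 7 stalk and membrane genes. The difference was in how many genes had a peak. The promoter peaks of Atp5l, Atp5o and Atp5j lay inside the range of distances of the F1 and c-ring peaks. The midpoint lay downstream of the start for 7 of the 8 genes, and for Atp5g3 it was at a start. Of these 8 peaks, 6 held AAGGTCA and 2 held TCAAGGTCA. Counting also the small membrane proteins Usmg5 (212 bp) and 2010107E04Rik (26 bp), 13 of 17 nuclear subunit genes had a promoter peak, and the 4 without one were Atp5f1, Atp5h, Atp5j2 and Atp5k. The list held no peak on the mitochondrial chromosome, which carries the genes of subunits a and A6L (mt-Atp6 and mt-Atp8), and whether reads from it were kept is not given in the sources used here.

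**Figure D4:**
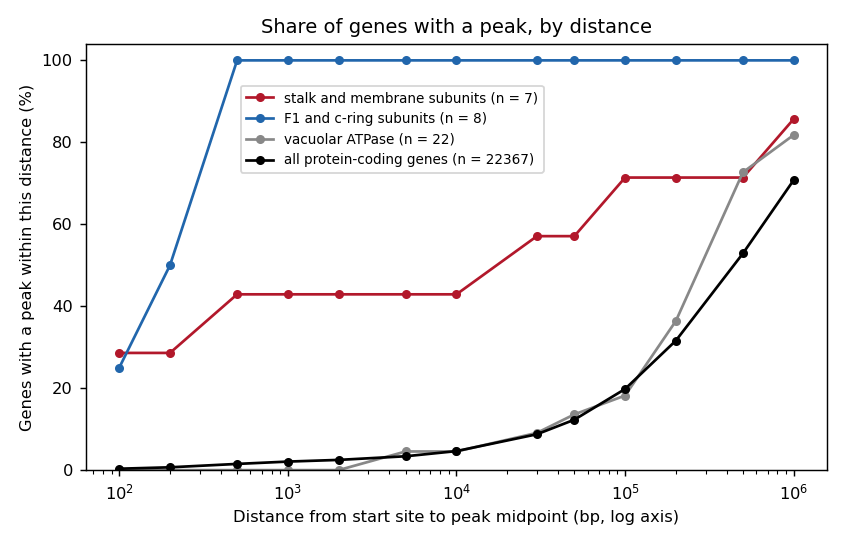
Lines give the percent of genes in each list with a peak midpoint within the distance on the x axis (bp, log axis) of any annotated start. The stalk and membrane genes stayed at 42.9% from 500 bp to 10 kb and reached 57.1% at 30 kb, all 8 F1 and c-ring genes had a peak from 500 bp on, and all protein-coding genes reached 2.08% at 1 kb and 8.75% at 30 kb.

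The letters of the ESRR site were counted on both strands in the 5 peaks, and each shorter sequence is part of the longer ones. TCAAGGTCA was in 2 of the 5 peaks, against 14.3% of all 1639 peaks, and TNAAGGTCA, with any second base, was in the same 2, against 20.4%. AAGGTCA was in 5 of 5, against 44.0% of all peaks and 53.1% of promoter peaks, and AGGTCA was in 5 of 5, against 61.4%. In windows of the same width around the starts of all protein-coding genes, 2.07% of genes had TCAAGGTCA and 16.8% had AAGGTCA. Of the letters of other factors, CCGGAAG was in 2 of 5 peaks (8.05% of all peaks), GCGCATGC in 1 (1.1%), GGGCGG in 1 (23.2%) and the control ACTGGAA in 1 (10.4%). Around the starts of all protein-coding genes the shares were 20.5% of genes for CCGGAAG, 5.8% for GCGCATGC, 61.5% for GGGCGG and 18.7% for ACTGGAA. CAAAGTCCA, the letters of HNF4, and AGATAAG, those of GATA factors, were in 0 of 5, against 2.56% and 9.88% of all peaks and 2.08% and 10.5% of genes. A match describes the letters only, and its absence says nothing about the factor.

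ESRR letters also lay near member starts where no peak was called, and 4 of these stretches are shown for comparison with those in peaks. They are a 27-base window in the untranslated first exon of Atp5k, chr5:108863379-108863405 (minus strand), and windows near starts of Atp5h, chr11:115280056-115280192 (plus strand), Atp5j, chr16:84836529-84836737 (minus strand) and Atp5j2, chr5:145951750-145951958 (minus strand). Capitals mark the matching letters in mm9.
Atp5k, no peak: ttccggcgcgAAGGTCAcggacaaaat
Atp5h, no peak: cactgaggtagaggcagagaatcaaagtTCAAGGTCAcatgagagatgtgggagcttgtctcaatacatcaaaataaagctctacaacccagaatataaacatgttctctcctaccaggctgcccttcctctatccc
Atp5j, no peak: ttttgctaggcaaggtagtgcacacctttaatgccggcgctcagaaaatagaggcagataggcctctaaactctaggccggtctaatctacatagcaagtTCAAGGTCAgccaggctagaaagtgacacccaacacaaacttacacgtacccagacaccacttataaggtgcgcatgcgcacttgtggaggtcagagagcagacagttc
Atp5j2, no peak: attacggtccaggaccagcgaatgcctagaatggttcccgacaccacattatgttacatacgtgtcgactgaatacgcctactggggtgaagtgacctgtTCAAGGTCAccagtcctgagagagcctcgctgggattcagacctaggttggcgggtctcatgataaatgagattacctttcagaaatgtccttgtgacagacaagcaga
Within 1 kb of their starts the 7 genes held 10 AAGGTCA, at least 1 in every gene, and 3 of the 10 lay in a peak, 1 each at Atp5o, Atp5j and Atp5l. TCAAGGTCA occurred 4 times, at Atp5o, Atp5j, Atp5h and Atp5j2, and only the one at Atp5o lay in a peak. The share of all protein-coding genes with these letters within 1 kb was not counted. Within 300 bp of a start, 5 of the 7 genes had AAGGTCA (not Atp5f1 or Atp5j2), against 16.8% of all protein-coding genes. For TCAAGGTCA at 300 bp it was 2 of 7, Atp5h and Atp5o, against 2.07%. These counts took every annotated start of a gene. By the outermost start alone, 2 of 7 genes had AAGGTCA (Atp5k and Atp5l), against 7.82% of all protein-coding genes. For TCAAGGTCA by that start it was 0 of 7, against 0.756%.

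The match at Atp5k was 24 bp downstream of a retained-intron start and 75 bp downstream of the outermost, protein-coding start. That at Atp5h was 33 bp upstream of an internal protein-coding start. By the nearest start of any type, both were nearer than the matches in the peaks of Atp5o (60 bp, processed transcript) and Atp5j (273 bp, protein-coding). Both were farther than that in the peak of Atp5l (10 bp). The TCAAGGTCA of Atp5j, outside its peak, lay 763 bp upstream of its outermost start and 1807 bp from the peak midpoint. With 3 bases on each side it was the same 15-base word as in the nearer Atp5h peak, with 3944 copies in the genome. That of Atp5j2 lay 526 bp downstream of a start and had 21 copies, and that of Atp5h had 60. The half-sites of Atp5f1 lay 390 bp and 564 bp from internal starts. Over the 30 kb on either side of the members' starts, 2 of 16 TCAAGGTCA and 5 of 82 AAGGTCA lay in peaks. The same was not counted over 30 kb around all protein-coding starts, so the shares that follow are for unlike windows. In the genome as a whole the shares were 0.558% of 56617 and 0.205% of 503901, and within 300 bp of protein-coding starts they were 6.68% of 479 and 2.6% of 4505. Members with and without a peak thus both had the half-site within 1 kb of a start. Across all protein-coding genes, 8.62% of those with TCAAGGTCA around a start had a promoter peak, against 1.94% of those without.

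**Figure D5:**
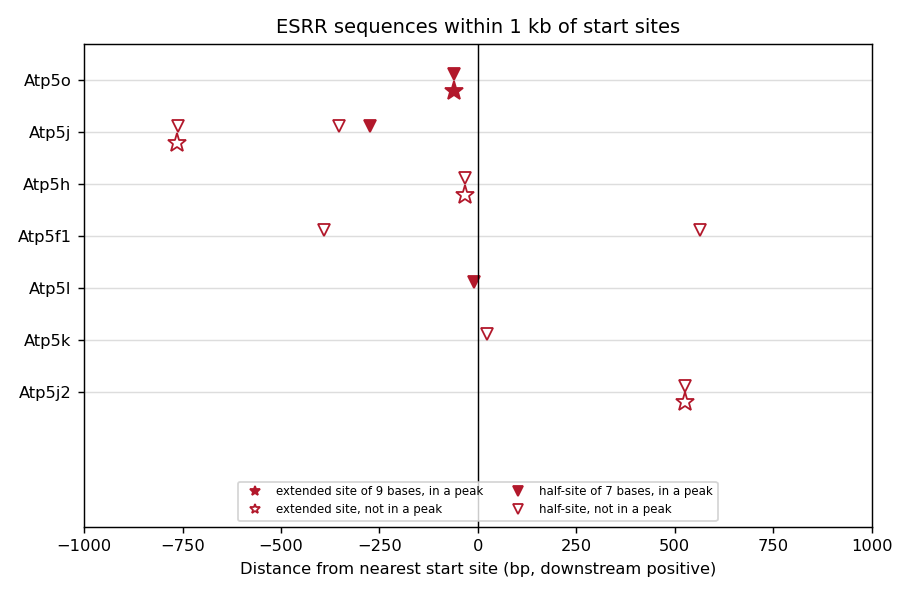
Stars (TCAAGGTCA, extended site) and triangles (AAGGTCA, half-site) show each match within 1 kb of a start of the 7 genes by its distance in bp from the nearest start, downstream positive, filled where the match lay in a peak. Each extended site contains a half-site; 3 of 10 half-sites and 1 of 4 extended sites are filled, and every gene has at least 1 half-site.

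Genes of proteins that accompany ATP synthase were counted by the same rule. Of a list of 8, the 2 with a peak within 30 kb were the small membrane proteins Usmg5 and 2010107E04Rik, already counted above as subunits. The other 6, for coupling and inhibitor proteins and assembly factors (Atp5s, Atp5sl, Atpif1, Atpaf1, Atpaf2 and Tmem70), had no peak within that distance. Of the 4 carriers that bring the enzyme its substrates, the phosphate carrier Slc25a3 (106 bp) and the ADP/ATP carrier Slc25a5 (305 bp) had promoter peaks, and Slc25a4 and Slc25a31 had no peak within 30 kb. The vacuolar ATPase is a related rotary enzyme outside mitochondria that uses ATP to pump protons. It had a peak within 30 kb at 2 of 22 genes, Atp6v0c (2747 bp) and Atp6v1g1 (14087 bp), or 9.09%, and at 0 of 22 promoters. Beside these lists, the shares of all protein-coding genes were 8.75% within 30 kb and 2.08% within 1 kb. The vacuolar share within 30 kb was thus close to that of all genes.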

How the data were processed

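ESRRA ChIP-seq was carried out on 2 libraries of duodenal villus chromatin, with 1 input library. According to the study's methods and the submitters' processing notes, the authors checked reads with FastQC (0.11.3), aligned them to mm9 with Bowtie2 (2.2.6), merged the ChIP libraries with SAMtools (0.1.19) and called peaks with MACS2 at a p-value of 1e-05. deepTools (2.4.2) made tracks that were not used here. The deposited list gave 3 columns per peak, chromosome, start and end. How all peaks came to have 1 width is not given in the sources used here. Pooling hides peaks of a single library. The study states the sequencing depth of the libraries only as a range, and the list gives no reads per peak.

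Peak midpoints were joined to GENCODE M1 starts with pandas (2.3.3) in Python (3.11.15), each gene record counting once by its nearest start, at 30 kb (the study's distance for target genes) and 1 kb. Exact matches on both strands were counted in peaks and in windows of the same width around starts, and the genomic copies of 24-base words were counted. Scripts were tested on simulated data. Members and gene lists were chosen with earlier results of these data known, so counts were set beside the background without a test. The text names all 7 members, every peak linked to them, genes with starts nearer to such a peak or opposite a member's start, and listed genes with a peak within 30 kb. Genes of the short lists without a peak were named as well.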

Additional observations from a re-analysis of the deposited data

How the results depend on the processing

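The number of protein-coding genes linked to a peak moved with the distance, from 1956 at 30 kb to 755 at 5 kb, 1038 at 10 kb and 4423 at 100 kb. The members linked were 3 at 5 kb and at 10 kb (without Atp5h) and 5 at 100 kb (with Atp5k). With only the outermost start of each gene, 2 members kept a promoter peak (without Atp5j), as did 7 of 8 F1 and c-ring genes (without Atp5d). Measuring from the edge of the peak, using only protein-coding transcripts, leaving out multi-copy peaks, and joining peaks less than 1 kb apart (chosen after seeing the data) left the counts of members at 4 and 3. The member peaks with the ESRR letters rose from 2 with TCAAGGTCA to 5 with AAGGTCA and 5 with AGGTCA, since these are shorter parts of it. A stricter peak threshold and leaving out a library were not run, because the pooled list had no score per peak. No paired analysis was possible because the 2 ChIP libraries had been pooled before peaks were called. Occupancy under the calling threshold could not be seen, since the list gives no reads per position.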
